A study of Mus musculus with 6 samples.

Results

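A set of 8 genes that supply or clear deoxynucleotides, the building blocks of DNA, was followed by name across 6 RNA sequencing libraries of mouse macrophages. The genes are Rrm1, Rrm2, Rrm2b, Tyms, Dut, Tk1, Dck and Samhd1. All 8 were found by gene symbol among the 16775 genes of the tables, and all 8 were among the 11898 genes compared. The cells were bone marrow cells of C57BL/6 mice, cultured for 5 days in 10 ng/ml M-CSF, a growth factor under which they become macrophages. They were then kept for 24 hours with IL4 alone, or with IL4 plus fatostatin, betulin, 25-HC, PF429424 or 1,10-Phen. Background knowledge of fatostatin and betulin is that both block the processing of SREBP. In all, 1 library was made for each of these 6 conditions. Every library, the control included, received IL4. The labels give no dose, no number of animals and no pooling, and they do not expand 25-HC or 1,10-Phen.

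Ribonucleotide reductase turns ribonucleotides into deoxynucleotides and sets the pace of DNA building block supply. The enzyme joins a large subunit, encoded by Rrm1, with a small subunit that carries an iron centre and a tyrosyl radical. The small subunit is encoded by Rrm2, which dividing cells use in S phase, or by Rrm2b, also known as p53R2, which non-dividing cells use and which p53 can induce. Tyms encodes thymidylate synthase, Dut the dUTPase that keeps uracil out of DNA, and Tk1 and Dck the cytosolic kinases that salvage thymidine and deoxycytidine. Samhd1 encodes an enzyme that degrades deoxynucleotides, abundant in macrophages and known for limiting retroviral DNA synthesis there.

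Rrm1 and Rrm2 are shown by the 150 bases upstream of their RefSeq start sites, because they encode the partner subunits compared in the results, and Dck is shown beside them as a salvage gene with a different order of libraries. The stretches lie on the plus strand of GRCm38.p6 at chr7:102441545-102441694 (Rrm1), chr12:24708104-24708253 (Rrm2) and chr5:88764863-88765012 (Dck), each ending at the base before the start site. Capitals mark CCAAT, the letters of the CCAAT box, and GGGCGG or its complement CCGCCC, the letters of the GC box.
Rrm1: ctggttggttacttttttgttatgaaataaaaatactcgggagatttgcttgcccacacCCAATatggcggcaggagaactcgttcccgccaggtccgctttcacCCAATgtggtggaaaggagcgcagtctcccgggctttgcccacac
Rrm2: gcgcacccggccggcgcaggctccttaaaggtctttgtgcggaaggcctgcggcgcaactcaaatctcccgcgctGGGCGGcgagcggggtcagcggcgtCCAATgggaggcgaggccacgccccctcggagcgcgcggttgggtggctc
Dck: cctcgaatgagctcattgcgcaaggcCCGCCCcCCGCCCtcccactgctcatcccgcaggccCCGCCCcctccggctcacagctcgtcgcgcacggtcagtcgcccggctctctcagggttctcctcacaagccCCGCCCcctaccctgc

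RefSeq windows of 300 bases, 250 before and 50 after the start site, were held for 7 of the 8 genes, all but Rrm2b. CCAAT was in the windows of Rrm1, with 2 matches, and Rrm2, with 1, and in 37.4% of all 32851 windows. GGGCGG was in those of Rrm2, Dck, Tk1, Tyms, Dut and Samhd1, against 35.7% of all windows, and none of its matches overlapped a CCAAT match. Neither of the CHR letters, TTTGAA or TTCGAA, was in a member's window except for 1 match in Dck, against 19.2% of all windows. None of the 7 windows held the E2F letters TTTCCCGC, TTTGGCGC, TTTCGCGC or TTTGCCGC on either strand, which 2.26% of all windows held. With so low a share, and with looser forms of the E2F letters not searched, their absence does not show that E2F sites are lacking. These matches describe letters only.

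The 6 libraries held between 20181396 and 21169667 estimated counts. A ratio is given as the log2 of a compound library over the IL4 library, with counts scaled to library size by TMM factors and a prior count of 2. It carries an exact 95% interval that covers counting error only. Genes were called from a 2-fold difference upwards (a log2 ratio of 1 or more in either direction) if 0 lay outside the interval. Each treatment has a single library, so there is no replicate check, no p-value is given, and each value compares libraries rather than conditions. All 5 comparisons share the IL4 library. In bulk RNA, fewer cells of a type and less RNA per cell cannot be told apart, which here includes cells in S phase. Macrophage markers were abundant in every library, with a summed level of 7920 to 12200 CPM (TMM scaled) over 10 genes, none of them at 0. Of these 10 markers, 2 were called lower and 1 higher with 25-HC (Adgre1 at -1.26, Mertk at -1.06 and Cd14 at 1.48), 1 lower with PF429424 (Mertk at -1.10) and 2 lower with 1,10-Phen, among them Mertk at -2.82. None was called with fatostatin or betulin. Over all genes compared, 5.69% were called lower and 3.28% higher with 25-HC, 5.63% lower with PF429424 and 11.8% lower with 1,10-Phen.

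Most of the 8 genes had their highest level with IL4 alone and their lowest with 1,10-Phen. The 6 genes Rrm1, Rrm2, Tyms, Tk1, Dck and Samhd1, were highest in the IL4 library and lowest in the 1,10-Phen library, while Rrm2b and Dut were neither, on the CPM scale. Of the 40 ratios, 32 lay below no change beyond counting error, 4 above it, and 4 had an interval that held no change. Over all genes compared, between 17.9% (fatostatin) and 37.0% (1,10-Phen) lay below no change beyond counting error, and between 19.4% and 36.0% above it. Of the 40 member ratios, 9 were called lower and none was called higher. Between 1.06% (fatostatin) and 11.8% (1,10-Phen) of all genes compared were called lower, and between 0.874% and 7.58% higher. The plot of levels by gene shows the distance of the 1,10-Phen library from the other 5 for Rrm1, Rrm2 and Tk1.

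**Figure D1:**
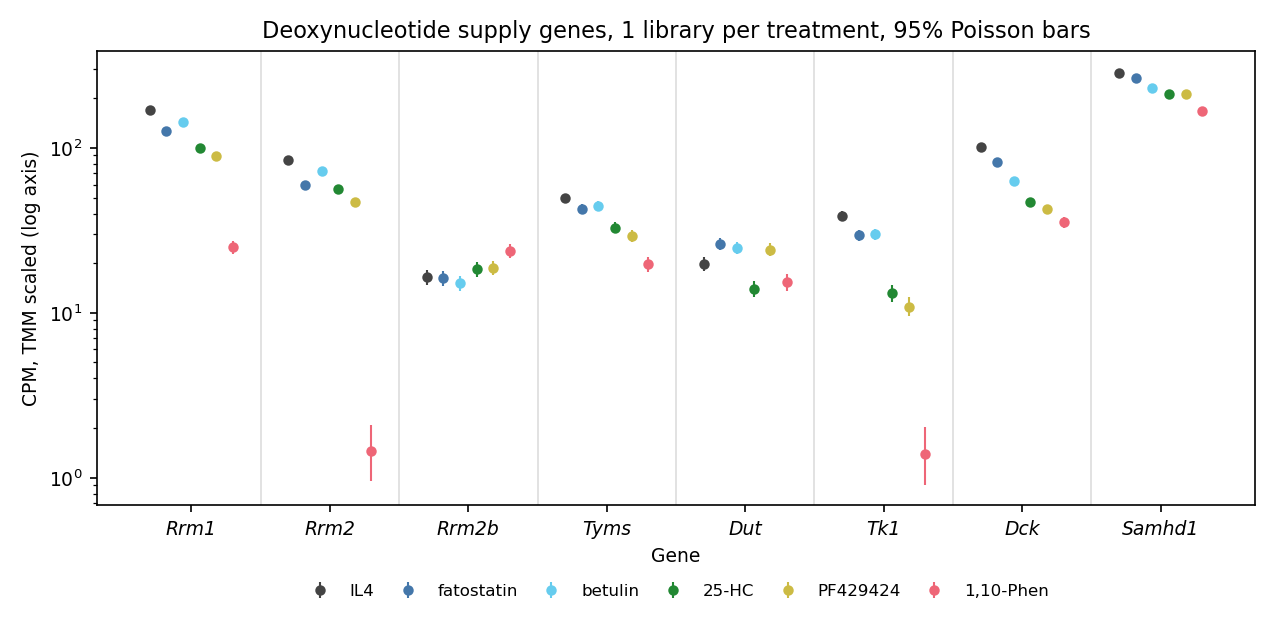
Level of each of the 8 genes in each library, in CPM scaled by TMM on a log axis, with exact 95% Poisson bars for counting error and 1 library per point. Rrm2 and Tk1 were at 1.45 and 1.39 CPM in the 1,10-Phen library, while Rrm2b stayed between 15.1 and 23.7 CPM in all 6.

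The transcript of the large subunit, Rrm1, was lower in every compound library. Rrm1 (NCBI gene 20133, protein coding, GRCm38 chromosome 7, 102441695 to 102469771, plus strand) stood at 44.6 FPKM with IL4 alone, 32.18 with fatostatin, 36.33 with betulin, 25.72 with 25-HC, 21.3 with PF429424 and 5.57 with 1,10-Phen. All neighbours in the order IL4, betulin, fatostatin, 25-HC, PF429424 and 1,10-Phen differed beyond counting error. The log2 ratio to IL4 was -0.42 (interval -0.49 to -0.34) with fatostatin and -0.23 (-0.30 to -0.16) with betulin. It was -0.76 (-0.83 to -0.68) with 25-HC, -0.93 (-1.01 to -0.85) with PF429424 and -2.75 (-2.90 to -2.62) with 1,10-Phen. The last of these was past 2-fold, on 466 counts against 3627. With library totals in place of TMM factors the PF429424 ratio was -1.06, and on the log2(FPKM + 1) scale -1.03, both past 2-fold.

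Rrm2, the small subunit gene of dividing cells, was the most changed of the 8 genes with 1,10-Phen. Rrm2 (gene 20135, protein coding, chromosome 12, 24708254 to 24714146, plus strand) stood at 41.24 FPKM with IL4 alone, 27.89 with fatostatin, 33.77 with betulin, 26.82 with 25-HC, 20.72 with PF429424 and 0.6 with 1,10-Phen. The last value rests on 27 counts, against 1815 in the IL4 library and 950 in the next lowest, PF429424. The log2 ratio with 1,10-Phen was -5.78 (-6.47 to -5.32), the 17th lowest of the 11898 genes compared. With the other compounds it lay between -0.22 (-0.32 to -0.12) for betulin and -0.85 (-0.97 to -0.74) for PF429424, and none was past 2-fold. Fatostatin and 25-HC were neighbours in the order of Rrm2 levels, and their counts did not differ beyond counting error (log2 ratio 0.08, interval -0.04 to 0.19).

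Rrm2b, the alternative small subunit gene, was not lower beyond counting error in any compound library. Rrm2b (gene 382985, protein coding, chromosome 15, 37923952 to 37961119, minus strand) stood at 3.86 FPKM with IL4 alone, 3.64 with fatostatin, 3.33 with betulin, 4.17 with 25-HC, 4.02 with PF429424 and 4.7 with 1,10-Phen. The 1,10-Phen library was highest, and the other 5 values formed a chain in which no neighbours differed beyond counting error. Only neighbours were compared in this chain, which ran from 18.8 CPM with PF429424 to 15.1 CPM with betulin. Its log2 ratio with 1,10-Phen was 0.53 (0.33 to 0.74), below 2-fold, and with the other 4 compounds the interval held no change, from -0.12 (-0.34 to 0.10) with betulin to 0.19 (-0.02 to 0.41) with PF429424. The 1,10-Phen ratio was 0.29 with library totals and 0.23 on the log2(FPKM + 1) scale. A pseudogene, Gm3362, overlaps Rrm2b by 1201 bases in the RefSeq annotation and could share reads with it.

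The make-up of ribonucleotide reductase transcripts differed in the 1,10-Phen library. Set against each other per length, Rrm2 made up 91.4% of the FPKM of both small subunit genes with IL4 alone, 88.5% with fatostatin, 91.0% with betulin, 86.5% with 25-HC and 83.8% with PF429424, but 11.3% with 1,10-Phen. The Rrm2 to Rrm2b ratio in the 1,10-Phen library differed from that in the IL4 library by -6.40 on the log2 scale (exact conditional interval -7.04 to -5.81), a comparison within libraries that needs no scaling factor. It differed by -1.05 (-1.29 to -0.81) with PF429424, -0.75 (-0.99 to -0.52) with 25-HC and -0.49 (-0.74 to -0.25) with fatostatin. With betulin the interval of this difference, -0.35 to 0.14, held 0.

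Rrm2 and Rrm1 kept nearly the same ratio in 5 libraries and not in the sixth. The Rrm2 to Rrm1 FPKM ratio was 0.925 with IL4 alone, 0.867 with fatostatin, 0.93 with betulin, 1.04 with 25-HC, 0.973 with PF429424 and 0.108 with 1,10-Phen. Against IL4 the log2 difference of this ratio was -0.09 (-0.22 to 0.03) with fatostatin, 0.01 (-0.11 to 0.13) with betulin and 0.07 (-0.07 to 0.22) with PF429424, all with 0 inside the interval. It was 0.17 (0.04 to 0.30) with 25-HC and -3.11 (-3.73 to -2.54) with 1,10-Phen. In the 1,10-Phen library Rrm1, at 5.57 FPKM, was thus close to Rrm2b, at 4.7 FPKM, and above Rrm2, at 0.6 FPKM.

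**Figure D2:**
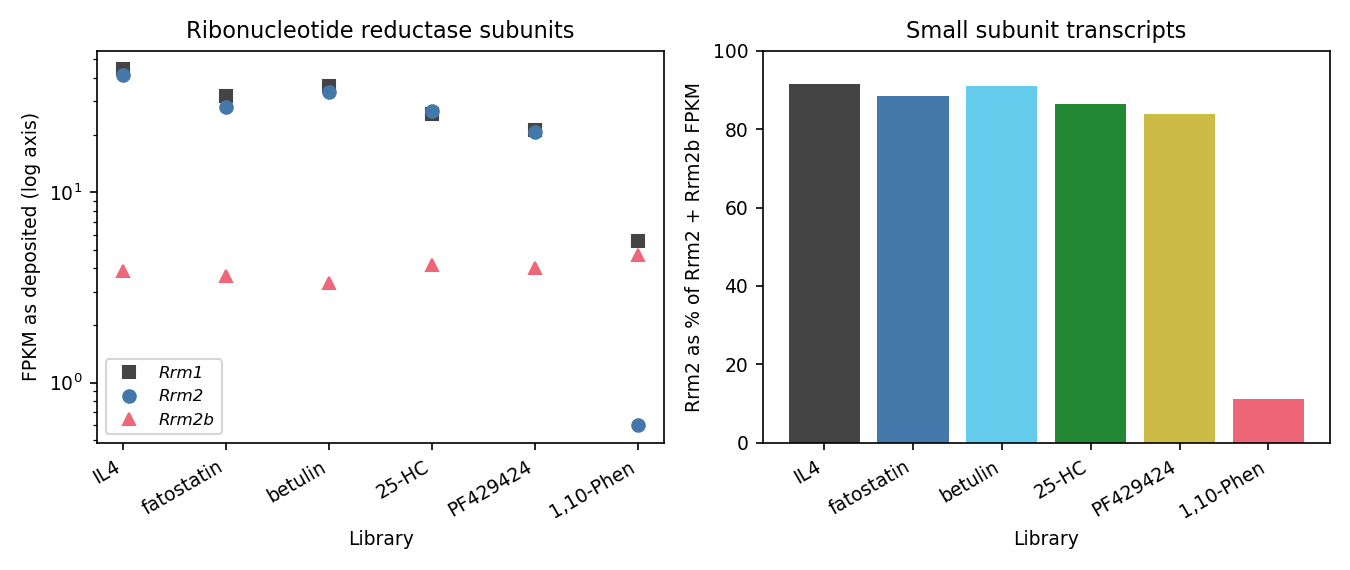
Left, FPKM as deposited for the 3 ribonucleotide reductase genes in the 6 libraries, on a log axis; right, Rrm2 as a percentage of the summed FPKM of Rrm2 and Rrm2b. Rrm2 supplies 83.8% to 91.4% of the pair in 5 libraries and 11.3% with 1,10-Phen.

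Tyms, which makes thymidylate from deoxyuridylate, was lower in every compound library and past 2-fold with 1,10-Phen. Tyms (gene 22171, protein coding, chromosome 5, 30038546 to 30073645, minus strand) stood at 13.78 FPKM with IL4 alone, 11.42 with fatostatin, 11.82 with betulin, 8.92 with 25-HC, 7.31 with PF429424 and 4.66 with 1,10-Phen. Fatostatin and betulin did not differ beyond counting error. The log2 ratio to IL4 was -0.21 (-0.34 to -0.09) with fatostatin, -0.15 (-0.28 to -0.03) with betulin, -0.60 (-0.74 to -0.46) with 25-HC, -0.77 (-0.92 to -0.62) with PF429424 and -1.33 (-1.51 to -1.16) with 1,10-Phen.

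Dut, whose product makes the deoxyuridylate that Tyms uses, followed an order of its own. Dut (gene 110074, protein coding, chromosome 2, 125247248 to 125259049, plus strand) stood at 9.18 FPKM with IL4 alone, 11.68 with fatostatin, 11.02 with betulin, 6.37 with 25-HC, 10.23 with PF429424 and 6.05 with 1,10-Phen. Fatostatin, betulin and PF429424 formed an upper group and 25-HC and 1,10-Phen a lower one, with IL4 between them and no neighbours within either group differing beyond counting error in scaled counts. The log2 ratios were 0.39 (0.21 to 0.58), 0.32 (0.13 to 0.51) and 0.29 (0.10 to 0.48) in the upper group, and -0.50 (-0.72 to -0.29) with 25-HC and -0.38 (-0.60 to -0.16) with 1,10-Phen in the lower. No Dut ratio reached 2-fold. The Tyms to Dut ratio was lower than with IL4 alone in the PF429424 library by a log2 difference of -1.06 (-1.30 to -0.81) and in the 1,10-Phen library by -0.96 (-1.24 to -0.68), and it was also lower with fatostatin (-0.61, -0.83 to -0.38) and betulin (-0.47, -0.70 to -0.25). With 25-HC the interval, -0.35 to 0.16, held 0.

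Tk1, the salvage kinase whose level is known to follow the cell cycle, was past 2-fold in 3 of the 5 compound libraries. Tk1 (gene 21877, protein coding, chromosome 11, 117815519 to 117826087, minus strand) stood at 31.69 FPKM with IL4 alone, 22.69 with fatostatin, 22.61 with betulin, 10.88 with 25-HC, 8.15 with PF429424 and 1.03 with 1,10-Phen. From the highest down came IL4, then fatostatin and betulin, which did not differ beyond counting error. Next were 25-HC and PF429424, which did differ (log2 ratio 0.27, interval 0.02 to 0.53), and last 1,10-Phen with 26 counts against 829. The log2 ratio was -0.39 (-0.54 to -0.24) with fatostatin, -0.36 (-0.52 to -0.21) with betulin, -1.54 (-1.75 to -1.35) with 25-HC, -1.81 (-2.04 to -1.60) with PF429424 and -4.70 (-5.42 to -4.23) with 1,10-Phen. The protein-coding gene Afmid overlaps Tk1 by 585 bases and held between 79.61 and 174.94 counts, and without knowledge of strand use in the counting, reads of the overlap cannot be told apart.

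Tk1 and Tyms, the salvage and synthesis routes to thymidylate, did not keep 1 transcript ratio. The log2 difference of the Tk1 to Tyms ratio from IL4 was -0.95 (-1.19 to -0.71) with 25-HC, -1.05 (-1.32 to -0.79) with PF429424 and -3.46 (-4.10 to -2.86) with 1,10-Phen. It was -0.21 (-0.41 to -0.01) with betulin, and with fatostatin the interval, -0.37 to 0.03, held 0.

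Dck, which salvages deoxycytidine, deoxyadenosine and deoxyguanosine, was past 2-fold in the same 3 libraries as Tk1 but over a narrower range. Dck (gene 13178, protein coding, chromosome 5, 88765013 to 88783277, plus strand) stood at 34.89 FPKM with IL4 alone, 27.28 with fatostatin, 20.86 with betulin, 15.77 with 25-HC, 13.33 with PF429424 and 10.38 with 1,10-Phen. All neighbours in that order differed beyond counting error. The log2 ratio was -0.30 (-0.39 to -0.21) with fatostatin, -0.67 (-0.77 to -0.58) with betulin, -1.11 (-1.22 to -1.003) with 25-HC, -1.25 (-1.36 to -1.14) with PF429424 and -1.504 (-1.64 to -1.38) with 1,10-Phen. Dck was the lowest ratio of the 8 genes with betulin, and the Tk1 to Dck ratio was higher there than with IL4 by a log2 difference of 0.31 (0.13 to 0.49), the reverse of 25-HC (-0.44, -0.66 to -0.21), PF429424 (-0.57, -0.82 to -0.33) and 1,10-Phen (-3.29, -3.92 to -2.71).

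Samhd1, the deoxynucleotide-degrading enzyme, had the highest FPKM of the 8 genes in every library and changed by less than 2-fold throughout. Samhd1 (gene 56045, protein coding, chromosome 2, 157097534 to 157135096, minus strand) stood at 76.54 FPKM with IL4 alone, 68.91 with fatostatin, 59.53 with betulin, 56.08 with 25-HC, 51.58 with PF429424 and 38.18 with 1,10-Phen. 25-HC and PF429424 did not differ beyond counting error in scaled counts. The log2 ratio was -0.10 (-0.15 to -0.05) with fatostatin, -0.30 (-0.35 to -0.24) with betulin, -0.42 (-0.47 to -0.36) with 25-HC, -0.43 (-0.49 to -0.37) with PF429424 and -0.76 (-0.83 to -0.70) with 1,10-Phen, or -1.004 in the last library with library totals as the scaling. The Samhd1 to Rrm1 FPKM ratio was 1.72 with IL4 alone and 6.85 with 1,10-Phen, a log2 difference of 1.99 (1.84 to 2.15).

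**Figure D3:**
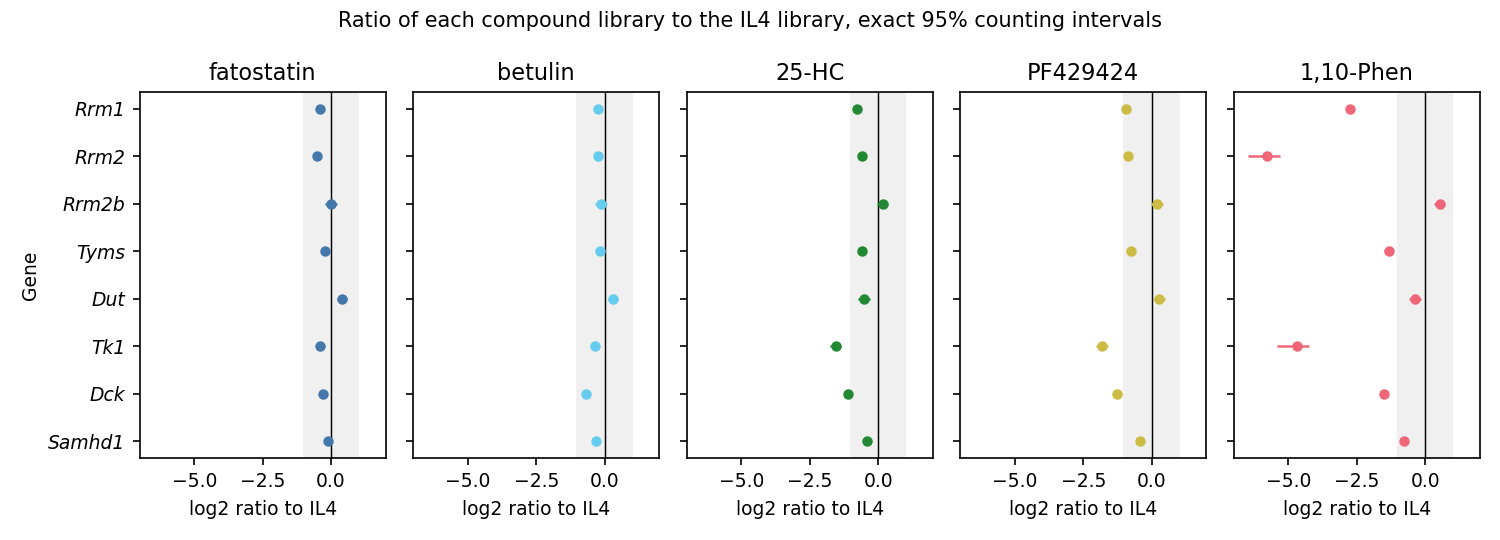
Log2 ratios of the 8 genes, each compound over IL4 alone, with exact 95% counting intervals; the grey band covers changes of less than 2-fold. With fatostatin and betulin every gene lies inside the band, with 25-HC and PF429424 Tk1 and Dck lie below it, and with 1,10-Phen Rrm1, Rrm2, Tk1, Tyms and Dck do.

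With fatostatin none of the 8 genes was called, where 1.06% of the 11898 genes compared were called lower and 0.874% higher. Of the members, 6 were lower beyond counting error and 1, Dut, was higher, where 17.9% and 19.4% of all genes were. The median log2 ratio was -0.26 over the 8 genes and 0.01 over all genes. With betulin none was called either, against 2.29% lower and 1.91% higher of all genes, and the median was -0.23 against 0.01. There 6 members were lower beyond counting error and 1 higher, against 25.3% and 27.6% of all genes. Both medians turned positive, to 0.22 and 0.23, with the gene's median over the 6 libraries as reference in place of IL4, and all members but Rrm2b lay above that median in both libraries.

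With 25-HC, 2 of the 8 genes were called lower and none higher, against 5.69% and 3.28% of all genes, and the median was -0.59 against 0.01. Beyond counting error 7 members were lower and none higher, against 31.5% and 33.6% of all genes. With PF429424, 2 of 8 were called lower and none higher, against 5.63% and 2.49% of all genes, and the median was -0.81 against 0.02. Beyond counting error 6 members were lower and 1 higher, against 27.9% and 32.7% of all genes. Tk1 and Dck were the genes called in both, and against the median of the 6 libraries neither was called. Library totals as the scaling moved the PF429424 median to -0.95 and that of all genes to -0.11, and changed the split of all calls from 296 higher and 670 lower to 216 and 867.

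With 1,10-Phen, 5 of the 8 genes were called lower and none higher, against 11.8% and 7.58% of all genes. Beyond counting error 7 members were lower and 1 higher, against 37.0% and 36.0% of all genes. The median was -1.42 against -0.01 over all genes, and the members spread from -5.78 for Rrm2 to 0.53 for Rrm2b. Tk1 was the 46th lowest ratio of all genes, Rrm1 the 239th, Dck the 780th and Tyms the 938th. Against the median of the 6 libraries 3 members were called, by the 2-fold size alone. With library totals 6 were called, Samhd1 being added, while the median of all genes moved to -0.25 and the split of all calls from 902 higher and 1406 lower to 641 and 1940.

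Of 17 further enzymes of deoxynucleotide supply compared (kinases, deaminases, pyrophosphatases and nucleotidases), 2 were called lower with 1,10-Phen and none higher, a share like the 11.8% of all genes called lower there, and the median was -0.25. The called genes were Dtymk, the kinase that acts next on thymidylate (log2 ratio -1.81, interval -2.16 to -1.51), and Dctpp1, a dCTP pyrophosphatase (-1.62, -2.001 to -1.29). None of the 17 was called lower with the other 4 compounds, and 1 was called higher with PF429424, Cmpk2, a mitochondrial nucleotide kinase (1.03, 0.67 to 1.44). Of all genes, 2.49% were called higher with PF429424.

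Genes of folate metabolism, which carries one-carbon units, split with 1,10-Phen into 3 called lower and 3 higher of 11, with a median of 0.19. Of all genes, 11.8% were called lower and 7.58% higher there. Mitochondrial Mthfd2 and Mthfd1l were at 1.81 and 2.47. Mthfd2 was also the gene called higher with 25-HC (1.77) and with PF429424 (2.15), where no folate gene was called lower. Of all genes, 3.28% and 2.49% were called higher in these libraries.

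Genes of ribonucleotide metabolism were called in both directions with 1,10-Phen, where 11.8% of all genes were called lower and 7.58% higher. With 1,10-Phen, 2 of 9 pyrimidine genes were called lower, Umps (-1.66) and Cad (-1.10), and 1 higher, Upp1, a uridine phosphorylase, at 107 counts against 9. Upp1 was also the gene called higher with betulin (23 counts), 25-HC (27) and PF429424 (22). Of all genes, 1.91%, 3.28% and 2.49% were called higher in these libraries. Of 12 purine synthesis genes, 4 were lower, with Prps1 at -2.10, and 2 higher, Adss at 2.16 and Impdh1 at 1.48. Of 10 purine salvage genes, 3 were lower and 2 higher with 1,10-Phen, and 1, the guanine deaminase gene Gda, was lower with betulin (-1.12), 25-HC (-2.52) and PF429424 (-1.74). With betulin, 25-HC and PF429424, 2.29%, 5.69% and 5.63% of all genes were called lower. One of 4 nucleoside transporter genes, Slc29a1, was called lower with 1,10-Phen (-1.29).

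DNA replication genes were called lower in 27 of 30 cases with 1,10-Phen and in none with the other 4 compounds. Of all genes compared, 11.8% were called lower with 1,10-Phen, and between 1.06% and 5.69% with the other 4. The median of the list was -3.04 with 1,10-Phen, with Cdc6, an origin loading factor, at -5.57, Pole, a polymerase subunit, at -5.08 and Mcm5, a helicase subunit, at -4.80. With the other compounds it was -0.22 for fatostatin, -0.06 for betulin, -0.38 for 25-HC and -0.53 for PF429424. The replication list ranged from -5.57 to -0.15 with 1,10-Phen, and Rrm1 and Tk1 lay inside that range, Rrm2 at -5.78 below it and Rrm2b at 0.53 above it.

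G2 and M phase genes had medians of -0.53 with fatostatin, -0.23 with betulin, -0.86 with 25-HC, -1.25 with PF429424 and -4.12 with 1,10-Phen. None of 20 was called lower with fatostatin or betulin, 6 with 25-HC, 15 with PF429424 and all 20 with 1,10-Phen. Of all genes compared, 1.06%, 2.29%, 5.69%, 5.63% and 11.8% were called lower, in the same order of compounds. The share of dividing cells was not measured, so its part in the ratios of the 8 genes was not tested.

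A list of 17 regulators was mostly of the E2F, RB and MYB families, which regulate S phase genes. With 1,10-Phen 7 of them were called lower and 1 higher, against 11.8% and 7.58% of all genes, and the median was -0.52. E2f7, a repressor, was at 2 counts against 423, E2f8 at -4.04, and Foxm1, which is in none of these families, at -4.93. A further list held 10 genes of the replication checkpoint or regulators of ribonucleotide reductase proteins. Of these, 4 were called lower there, against 11.8% of all genes. Among them were Clspn (-4.12), Chek1 (-4.06) and Ccnf, whose product is known to target the Rrm2 protein for degradation (-2.89). Of 20 genes of p53 and its targets, 4 were called higher and 2 lower with 1,10-Phen, against 7.58% and 11.8% of all genes. The largest changes among these 20 were Gadd45a at 3.18, Sesn1 at -2.24 and Btg2 at -2.03. Their median was -0.29, with 13 below 0, and Rrm2b was at 0.53.

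**Figure D4:**
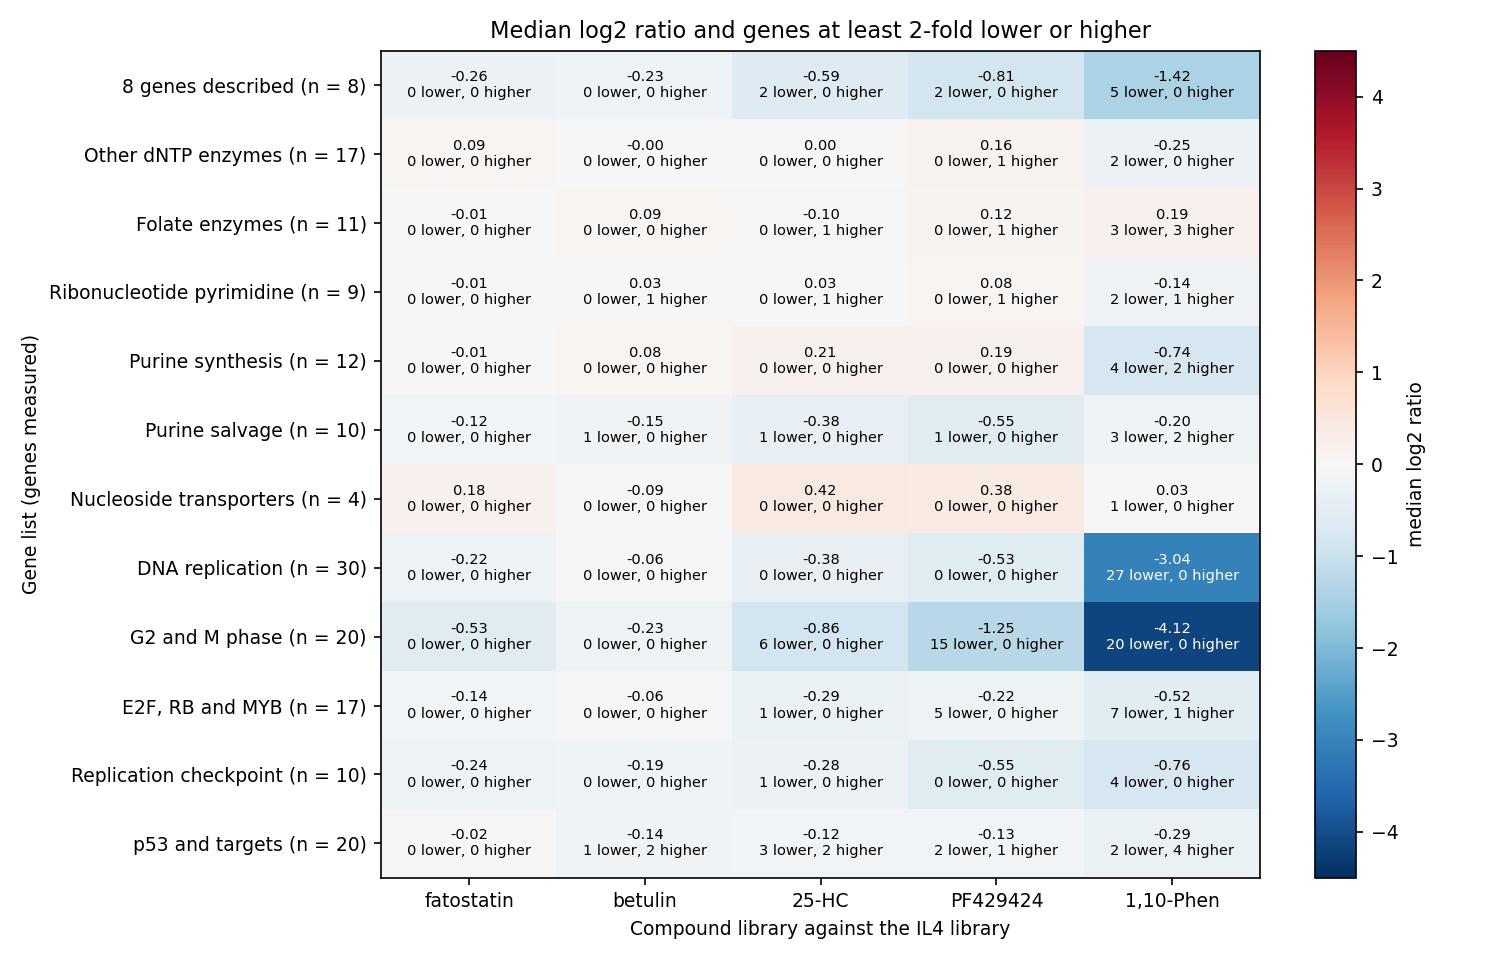
Median log2 ratio to the IL4 library for the 8 genes and for 11 related gene lists, with the number of genes called at least 2-fold lower or higher in each cell. The 8 genes reach -1.42 with 1,10-Phen, between the replication list at -3.04 and the other nucleotide lists, which lie between -0.74 and 0.19.

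Interferon-stimulated genes, listed because interferon is known to raise Samhd1 in some cells, had a median of -0.39 over 19 genes with 1,10-Phen. There 3 were called lower and 1 higher, against 11.8% and 7.58% of all genes. Usp18 was at -1.52, Irf1 at -1.35 and Rsad2 at 1.79. With fatostatin none was called, and with betulin Rsad2 was higher (1.29), where 1.91% of all genes were. With 25-HC 3 were lower, against 5.69% of all genes. With PF429424 4 were higher and 1 lower, against 2.49% and 5.63% of all genes.

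Markers of other bone marrow cells moved in some of these libraries as well. The 10 progenitor markers summed to 39.9 CPM with IL4 alone, 27.4 with fatostatin, 33.1 with betulin, 48.4 with 25-HC, 34.0 with PF429424 and 10.4 with 1,10-Phen. Myb, a progenitor transcription factor, was at 0 counts with 1,10-Phen, where Cd34 was at -3.85 and Gata2 held 80 counts against 92. Cd34 was also called lower with fatostatin (-1.46) and PF429424 (-1.53), and Gata2 was called higher with 25-HC (2.25) and PF429424 (1.71). Of 12 neutrophil markers compared, 1 was called lower with fatostatin, 1 lower and 1 higher with betulin, 1 lower and 3 higher with 25-HC, 8 lower with PF429424 and 8 lower with 1,10-Phen. Of all genes, 1.06%, 2.29%, 5.69%, 5.63% and 11.8% were called lower in these libraries, in the same order. With betulin and 25-HC, 1.91% and 3.28% of all genes were called higher. The summed level of the 13 on the list was 825 CPM with IL4 alone, 476 with fatostatin, 819 with betulin, 827 with 25-HC, 468 with PF429424 and 913 with 1,10-Phen. Mmp8, chosen after its values were seen, held 11326 counts with IL4 alone, 2055 with fatostatin and 15529 with 1,10-Phen. It held the most counts of the 13 in every library, so the neutrophil sum depends heavily on this gene. The defining neutrophil marker Ly6g held only 5 counts with IL4 alone, below the level for comparison. It was at 0 with PF429424 and 1,10-Phen, and the intervals of both ratios held no change. The part of these marker genes in the ratios of the 8 genes was not tested. The other marker lists ranged in summed level from 31.6 to 120.0 CPM for 7 T cell genes, 0.738 to 5.03 for 6 B cell genes, and 0.591 to 1.07 for 8 erythroid genes. The summed level of 8 stromal genes was highest with IL4 alone, and was 78.6 CPM with fatostatin, 36.0 with betulin, 65.0 with 25-HC, 41.5 with PF429424 and 98.9 with 1,10-Phen. This sum was almost wholly Col1a1 and Col1a2, at 1027 and 1048 counts with IL4 alone. The other stromal genes held at most 34 counts each in any library. The collagen gene Col1a1 was called lower with betulin (-1.61) and PF429424 (-1.505), as was Col1a2 (-1.53 and -1.17). The T cell genes Cd3e, Cd3d and Cd3g held at most 10 counts each in any library, and Cd28 held 1095 counts with IL4 alone, 550 with 25-HC and 2142 with 1,10-Phen.

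The genes most like each member over the 6 libraries were named by Pearson r of log2(CPM + 1) among 9727 genes with a mean of at least 5 CPM. For Rrm2 they were Pold1, Pole and Mcm5 (r from 0.9992 to 0.9997), and for Rrm1 they were D17H6S56E-5, Ccnf and Aurkb (0.9991 to 0.9998). For Tk1 they were Cenph, Cbx6 and Naa40 (0.9979 to 0.9994), and for Tyms Cip2a, Gm38481 and Cenpa (0.9975 to 0.9991). For Dck they were Id3, Igfbp4 and Alpk1, for Samhd1 Map4k2, Wbp1 and Cyp27a1, for Dut Usf2, Cul4a and Dis3l2, and for Rrm2b Kdm4a, Sun1 and Ncor1, with r of at least 0.9879. The points are 6 libraries of 1 experiment, and the 1,10-Phen library lies far from the others for Rrm1, Rrm2 and Tk1.

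Among the members themselves r was 0.978 for Rrm1 and Rrm2, 0.988 for Rrm1 and Tk1 and 0.988 for Tk1 and Tyms. Rrm2b had a negative r with all the other 7 members, from -0.971 with Tk1 to -0.649 with Dut. Dut had r between 0.474 and 0.583 with the 6 members other than Rrm2b. These describe 6 shared libraries and carry no test.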

How the data were processed

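The members and gene lists were chosen with earlier results of these data known. Per the file headers, the deposited tables hold an estimated count (expected count) for each gene, not scaled between libraries, and between 30.5% and 32.0% of values in a library are not whole. The deposited FPKM values, per the file headers, are scaled to transcript length and library size by the authors. RSEM 1.2.12, HISAT2, DESeq2 and Bowtie2 are listed by the submitters' processing notes with no step or order, and the sources used here do not state strand use.

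Counts were rounded and scaled with TMM factors (edgeR 4.0.16, R 4.3.3), from 0.9001 to 1.064. Genes with at least 1 CPM by library total in at least 1 library were compared across all genes, 11898 in all. Ratios used a prior count of 2, and their intervals were Clopper-Pearson 95% intervals. Gene pairs had exact conditional 95% intervals of the odds ratio. Both kinds of interval cover counting error only. The procedure was run on simulated counts that held Poisson counting error only. That run could not check variation between libraries, because none was simulated. By rule, named genes were the 8 members, at most 3 genes per list with the largest called ratios and at least 5 CPM, and the 3 genes most like each member. Outside this rule, Myb, Ly6g, Cd3e, Cd3d and Cd3g were named although at low counts. Values of Upp1, Gata2 and Mmp8 were also given for libraries in which these genes did not meet the rule. The alternatives were library totals, size factors of DESeq2 1.42.0, no filter, at least 5 CPM, prior counts of 0.5 and 10, log2(FPKM + 1), and the median of the 6 libraries as reference. With log2(FPKM + 1) and with the median as reference, calls used the 2-fold size alone, without an interval. Positions and promoter windows are from RefSeq on GRCm38.p6, the assembly of the chromosome accessions in the tables, and strands from GENCODE, since the deposited tables give plus for Tk1 and Rrm2b where GENCODE gives minus; whether the counting used those strands is not known here. Protein sequences were not compared here. The values of 1 gene of the folate list are not reported here. Python 3.11.15 with numpy 2.4.6, pandas 2.3.3, SciPy 1.17.1 and matplotlib 3.10.9 was used otherwise.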

Additional observations from a re-analysis of the deposited data

How the results depend on the processing

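No paired analysis was possible because each treatment has 1 library. Under the 7 alternatives that kept the IL4 library as reference, none of the 40 ratios of the 8 genes changed sign. The changes of filter (no filter, at least 5 CPM) do not enter these ratios, so they could not have changed a sign. With the median of the 6 libraries as reference, 12 changed sign, all with fatostatin or betulin. In these genes both libraries lay below IL4 alone and above 25-HC, PF429424 and 1,10-Phen, so the change follows from that order. The median over the 8 genes then became 0.221 with fatostatin, 0.235 with betulin, -0.182 with 25-HC, -0.324 with PF429424 and -0.768 with 1,10-Phen. By the 2-fold size alone, the genes called lower then became 0 with 25-HC, 0 with PF429424 and 3 with 1,10-Phen. With library totals the median was -0.947 with PF429424 and -1.659 with 1,10-Phen.

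Counts over all genes moved more. For fatostatin, higher calls were 166 with no filter, lower and higher calls were 64 and 42 at 5 CPM, 76 and 52 with a prior count of 10 and 47 and 23 with log2(FPKM + 1), and lower calls were 70 against the median library. For betulin, lower and higher calls were 146 and 138 at 5 CPM, 101 and 76 with log2(FPKM + 1) and 48 and 57 against the median library. For 25-HC, lower calls were 442 at 5 CPM, and lower and higher calls were 340 and 174 with log2(FPKM + 1) and 210 and 119 against the median library. For PF429424, lower calls were 435 at 5 CPM, and lower and higher calls were 397 and 95 with log2(FPKM + 1) and 154 and 67 against the median library. For 1,10-Phen, higher calls were 399 with log2(FPKM + 1). Higher filters and pseudocounts remove or shrink low genes by construction. Depth limits Rrm2 and Tk1 with 1,10-Phen, at 27 and 26 counts.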
